A study of Mus musculus with 19 samples.

Results

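Levels of 9 genes were followed through the 19 libraries of a mouse study, out of 56941 genes in the deposited tables. The genes were Aass, Slc10a6, Slc22a4, Skint3, Coro2b, Ppfia4, Kazn, C77080 and Adamts2. They had been picked by symbol because their levels differed very widely between ICAM-1 null and wild type mice, so the difference between the lines is described here and not tested. All 9 passed the filter on low counts, which left 20501 genes. Each was low in 1 line, with a mean at or under 4.73% of the other line's mean in the same condition. Of the 9, 3 were high in null mice and 6 in wild type mice.

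The libraries were bulk RNA sequencing of cells washed from the airspaces of the lung, which the labels call alveolar macrophages. Mice were female and 7 to 8 weeks old. The 4 groups were naive wild type mice (C57Bl/6J, n = 4), naive ICAM-1 null mice (n = 5), and wild type (n = 5) and ICAM-1 null mice (n = 5) lavaged 1 h after 100 µL of pHrodo-labeled Staphylococcus aureus bioparticles at 2.27 mg/mL, aspirated through the oropharynx under isoflurane. The sources used here do not give the genetic background of the null line or say if littermates served as wild type mice. Loss of ICAM-1 and other differences between the lines therefore cannot be told apart. Treatment of the naive mice with a vehicle or isoflurane is also not stated there.

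ICAM-1 is an adhesion molecule that leukocyte integrins bind. The 9 genes do not belong to a shared pathway. Aass encodes the mitochondrial enzyme that opens lysine breakdown through saccharopine. Slc10a6 and Slc22a4 encode membrane transporters, the former for sulfated steroids and the latter, known as OCTN1, for organic cations and ergothioneine. Skint3 belongs to a family of immunoglobulin-like surface proteins best known from skin epithelium, where relatives guide intraepithelial T cells. Coro2b encodes a coronin, an actin-binding protein, Ppfia4 a liprin-alpha scaffold, Kazn the cell junction protein kazrin, and C77080 a protein of the NHS family. Adamts2 encodes a secreted protease that trims the amino end of procollagens.

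The sequence before the start site is given for the 6 genes that have a single start site in RefSeq, to show what the promoters of genes high in the same line hold. RefSeq (build GRCm38.p6, older than the build of the deposited tables) matched 9 of 9 genes, with 14 start regions. Each line holds the 250 bases before the start, and capitals mark CCAAT (or ATTGG on the other strand) and GGGCGG (or CCGCCC). The first 3 are genes high in null mice, and the others are high in wild type mice. The regions are chr6:23132987-23133236 (minus strand) for Aass, chr5:103629404-103629653 (minus) for Slc10a6, chr11:54028105-54028354 (minus) for Slc22a4, chr4:112231995-112232244 (plus) for Skint3, chr9:62537045-62537294 (minus) for Coro2b and chr11:50601835-50602084 (plus) for Adamts2.
Aass: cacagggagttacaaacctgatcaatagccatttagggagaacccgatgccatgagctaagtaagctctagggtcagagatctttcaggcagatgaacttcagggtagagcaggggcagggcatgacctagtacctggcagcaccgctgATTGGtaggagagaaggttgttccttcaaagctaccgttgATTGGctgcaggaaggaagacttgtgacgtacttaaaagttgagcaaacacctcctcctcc
Slc10a6: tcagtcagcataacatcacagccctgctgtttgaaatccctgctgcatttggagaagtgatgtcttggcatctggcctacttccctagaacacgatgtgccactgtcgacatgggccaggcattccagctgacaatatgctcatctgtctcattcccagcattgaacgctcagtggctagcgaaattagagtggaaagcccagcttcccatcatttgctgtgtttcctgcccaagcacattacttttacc
Slc22a4: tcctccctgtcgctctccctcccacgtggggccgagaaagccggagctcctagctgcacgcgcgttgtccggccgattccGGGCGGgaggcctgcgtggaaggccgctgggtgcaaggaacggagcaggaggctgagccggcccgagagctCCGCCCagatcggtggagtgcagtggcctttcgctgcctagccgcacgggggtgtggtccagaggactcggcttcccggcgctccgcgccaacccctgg
Skint3: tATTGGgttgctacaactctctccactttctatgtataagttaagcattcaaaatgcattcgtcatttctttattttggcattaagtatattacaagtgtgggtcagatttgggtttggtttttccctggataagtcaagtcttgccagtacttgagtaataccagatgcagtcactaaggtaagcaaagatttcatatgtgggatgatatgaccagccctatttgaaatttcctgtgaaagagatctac
Coro2b: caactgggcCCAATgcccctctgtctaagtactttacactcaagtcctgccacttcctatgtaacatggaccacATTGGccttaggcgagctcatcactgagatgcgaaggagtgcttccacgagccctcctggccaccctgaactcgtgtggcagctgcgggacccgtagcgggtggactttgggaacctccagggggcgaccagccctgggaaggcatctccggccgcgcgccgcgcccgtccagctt
Adamts2: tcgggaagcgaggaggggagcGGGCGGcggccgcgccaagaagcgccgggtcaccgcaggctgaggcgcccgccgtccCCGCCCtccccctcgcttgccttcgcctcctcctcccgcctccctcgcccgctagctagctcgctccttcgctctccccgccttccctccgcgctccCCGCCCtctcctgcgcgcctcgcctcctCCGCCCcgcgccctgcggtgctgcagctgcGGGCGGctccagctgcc

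The number of CpG dinucleotides in the 6 promoters varied among the genes of each direction. Among genes high in null mice, Aass and Slc10a6 each held 4 CpG dinucleotides and Slc22a4 held 26. Among genes high in wild type mice, Skint3 held 1, Coro2b 15 and Adamts2 34. The median over 32851 RefSeq start regions of the same length was 6. CCAAT in either orientation occurred 2 times in Aass, 1 time in Skint3 and 2 times in Coro2b, and 33.9% of all start regions held it. GGGCGG occurred 2 times in Slc22a4 and 5 times in Adamts2, against 32.7% of all start regions with at least 1. CACGTG was found 1 time in Slc22a4 (6.02% of all start regions) and TATAAA in none of the 6 (12.4% of all). The matches are descriptions of these letters in this window.

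Icam1, which checks the labels, was lower in every null library. It stood at 81.4, 85.9, 63.8 and 67.2 TPM in naive wild type mice and at 11.5, 9.52, 8.398, 4.88 and 6.29 TPM in naive null mice. TPM is a transcript level scaled for gene length and library size. After exposure Icam1 reached 722.5 to 1079 TPM in wild type mice and 9.48 to 13.2 TPM in null mice. The libraries held 32.8 to 80.3 M estimated counts, and naive wild type library 4 was the deepest. Summed TPM of 11 alveolar macrophage markers was 19590 to 25500 in naive and 19350 to 24760 in exposed libraries, and Chil3 made up most of it. Within that list Marco, a scavenger receptor gene, was higher in naive null than in naive wild type mice (1844 against 478.4 TPM, log2 fold change 2.01, SE 0.19). Car4, a carbonic anhydrase gene, was lower (436.1 against 975.1 TPM, -1.11, SE 0.13). Summed levels of neutrophil markers were 60.8 to 79.8 TPM in naive wild type and 159.7 to 168.1 TPM in naive null libraries, and 51.7 to 88.6 and 103.0 to 136.7 TPM in exposed ones. That list was split. By edgeR (adjusted p under 0.05) Csf3r, S100a8 and Cxcr2 were higher in null mice in both conditions. Csf3r led them at 31.6 TPM in naive wild type and 99.0 TPM in naive null mice. S100a9, Retnlg and Mmp8 did not pass in naive mice. In exposed null mice S100a9 and Retnlg were lower (-1.46, SE 0.43, and -4.31, SE 1.3).

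Across all 19 libraries the null and wild type ranges of TPM did not overlap for any of the 9 genes, which is what they were picked for. Such separation was seen for 1.29% of the genes tested. The rank of the gap between the lines was taken as the lowest level in the high line over the highest level in the low line, among genes with at least 1 TPM in every library of the high line. Of 11823 such genes in null mice, 35 had a gap of at least 2 times, and Aass, Slc22a4 and Slc10a6 ranked 2, 4 and 5 with gaps of 33.8, 11.9 and 10.7 times. Of 11851 such genes in wild type mice, 21 had such a gap, and the first 6 were Coro2b (17.7 times), Ppfia4 (13.0), C77080 (11.8), Adamts2 (9.89), Kazn (8.57) and Skint3 (8.32). Icam1 itself came next at 4.84 times. A gene at 0 TPM in every library of the low line has no such ratio, and any such gene was left out of the 35, the 21 and the ranks. In the null direction 20 of the 35 genes were not protein-coding, against 2 of 21 in the wild type direction.

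**Figure D1:**
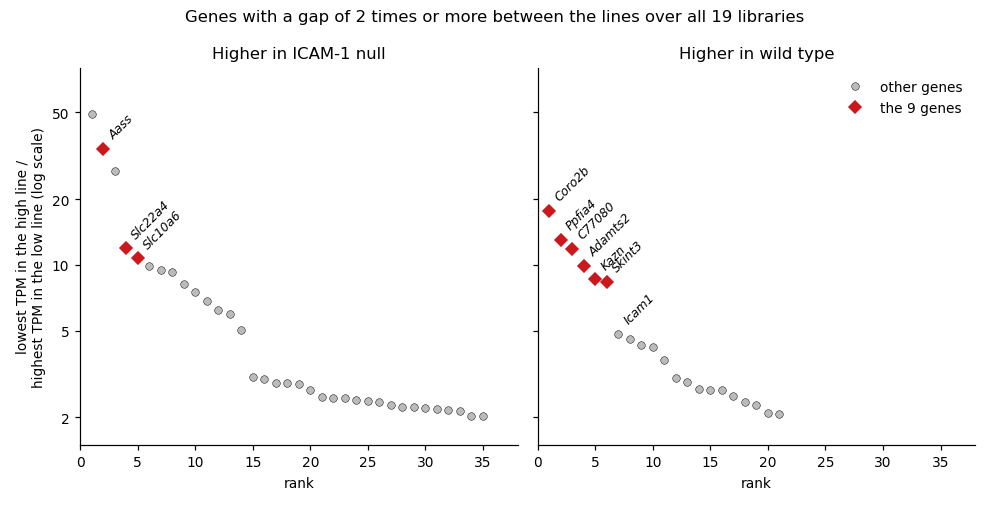
Lowest TPM in the high line divided by the highest TPM in the low line (vertical axis, log scale) against rank (horizontal axis), for the 35 genes higher in null and the 21 genes higher in wild type mice whose gap was at least 2 times. Diamonds mark the 9 genes, which hold ranks 2, 4 and 5 on the left and the first 6 ranks on the right, above Icam1.

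Aass was the most abundant of the 9. Naive null libraries held 92.6, 79.1, 65.6, 84.3 and 93.6 TPM, and naive wild type libraries 0.43, 0.20, 0.13 and 1.15 TPM. Library 4, the deepest wild type library, held the highest of the low values. After exposure the null libraries held 64.0, 63.2, 69.7, 55.4 and 64.6 TPM and the wild type libraries 1.47, 1.64, 1.27, 1.22 and 1.16 TPM. The mean level was 174.4-fold higher in null than in wild type mice when naive and 46.9-fold higher when exposed. Without naive wild type library 4 the naive value was 331.7-fold. Within the wild type line, where the gene was low, Aass was higher in all 5 exposed libraries than in any naive library, by a narrow margin (1.159 against 1.154 TPM). Its log2 fold change there was 1.67 (SE 0.32, edgeR adjusted p = 2.7e-04), on counts of 11 to 178 in naive and 102 to 174 in exposed libraries, and it was 2.84 without naive library 4. Within the null line the change was -0.03 (SE 0.22, adjusted p = 0.92, approximate 95% interval -0.47 to 0.40).

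Slc10a6 was listed at 0 in naive wild type libraries 1 and 3 and at 0.10 and 0.27 TPM in libraries 2 and 4. Naive null libraries held 12.8, 9.78, 14.6, 15.4 and 21.2 TPM. Exposed libraries held 0.11, 0.18, 0.30, 0.28 and 0.16 TPM in wild type and 3.25, 7.11, 8.16, 7.17 and 4.91 TPM in null mice. Levels in the null line were thus lower in every exposed library than in any naive library. The gene fell there by 0.91 on the log2 scale (SE 0.33, edgeR adjusted p = 0.028), a call that was lost on leaving out any 1 of 5 null libraries (naive 3, 4 or 5, or exposed 1 or 5, with adjusted p from 0.051 to 0.09). In wild type mice 3 of 4 naive and 3 of 5 exposed libraries lay at or under 12 counts, the floor of detection used here. The difference there did not pass (log2 fold change 1.15, SE 0.57, edgeR adjusted p = 0.12). It did pass by DESeq2 (1.23, adjusted p = 0.023) and without naive wild type library 4 (2.71, edgeR adjusted p = 0.0061). With counts of 0 to 24 in naive and 8 to 20 in exposed wild type libraries, no change is read from it under any setting, and no fold between the lines is given.

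Slc22a4 was the third gene that was high in null mice. Its levels were 21.8, 34.8, 25.4, 23.2 and 23.9 TPM in naive and 26.6, 24.1, 26.0, 22.1 and 22.8 TPM in exposed null libraries. Naive wild type libraries held 1.16, 0.19, 0.22 and 0.43 TPM and exposed ones 1.16, 1.84, 0.48, 1.33 and 0.94 TPM. The ranges of naive and exposed libraries overlapped in both lines. In wild type mice Slc22a4 passed the test, 1.62 higher on the log2 scale (SE 0.34, edgeR adjusted p = 6.6e-04), on counts of 9 to 41 in naive and 33 to 99 in exposed libraries. In null mice it changed by 0.21 (SE 0.23, adjusted p = 0.49, approximate 95% interval -0.24 to 0.66). The mean level was 51.8-fold higher in the null line when naive, 92.3-fold without naive wild type library 1, and 21.2-fold higher when exposed.

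**Figure D2:**
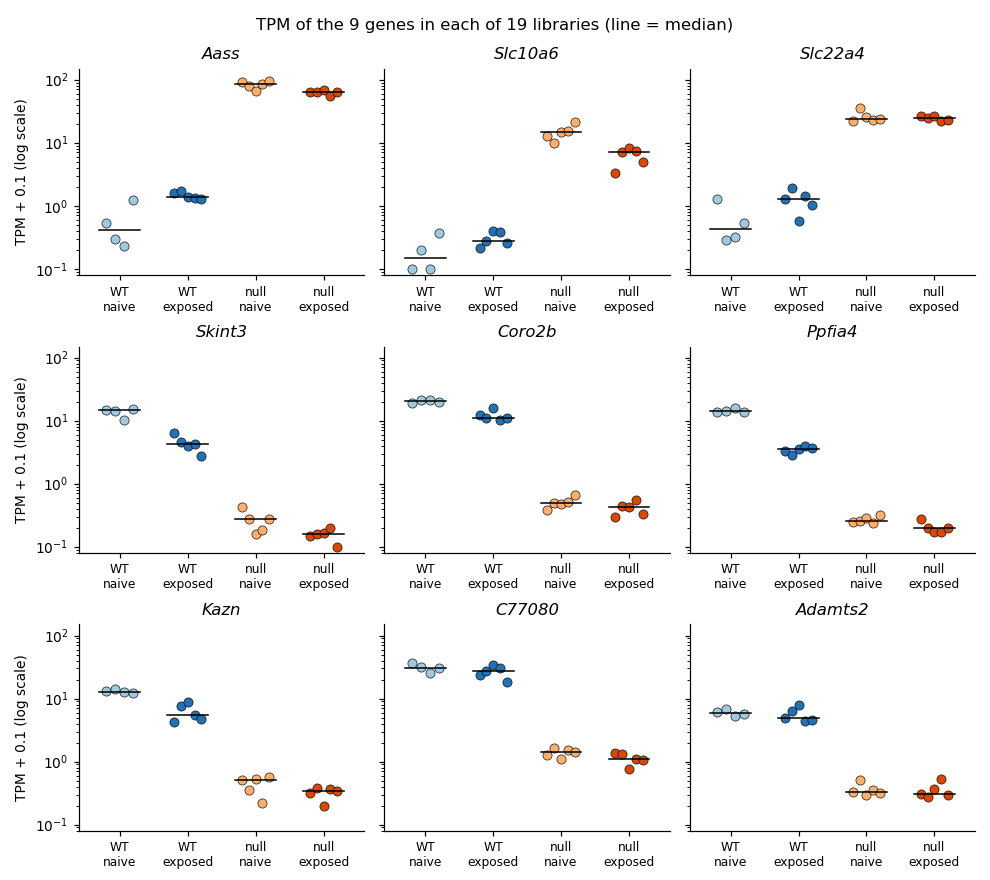
TPM plus 0.1 (vertical axis, log scale) of each of the 9 genes in every library, by group, with WT for wild type and a bar at the group's median. The top 3 genes are high in the 10 null libraries and the other 6 in the 9 wild type libraries, and no gene's lines overlap.

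Skint3 went from 14.7, 14.2, 9.95 and 15.1 TPM in naive wild type libraries to 6.26, 4.54, 3.92, 4.23 and 2.69 TPM in exposed ones. All exposed libraries lay below all naive ones. Null libraries held 0.32, 0.18, 0.06, 0.09 and 0.18 TPM when naive and 0.05, 0.06, 0.06, 0.10 and 0 TPM when exposed. In wild type mice Skint3 fell by 1.26 on the log2 scale (SE 0.31, edgeR adjusted p = 0.0025). In null mice the value was -1.24 (SE 0.48, adjusted p = 0.041), with all 5 exposed libraries at or under 12 counts. That call was lost without a filter on low counts (adjusted p = 0.054) and on leaving out any 1 of 7 null libraries. Without naive null library 1 the change was -0.82 (adjusted p = 0.18). The mean in wild type mice was 81.9-fold higher when naive, and with so few counts in exposed null mice no fold is given there.

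Ppfia4 showed the greatest fall with exposure among the 9. Naive wild type libraries held 13.8, 14.3, 15.5 and 13.7 TPM, and exposed ones 3.17, 2.78, 3.48, 3.85 and 3.53 TPM. The spread within each group was small beside the step between them. The log2 fold change was -1.71 (SE 0.18, edgeR adjusted p = 1.1e-07). Null libraries held 0.15, 0.16, 0.19, 0.13 and 0.21 TPM when naive and 0.18, 0.10, 0.07, 0.07 and 0.09 TPM when exposed. Exposed null library 1 lay inside the naive range and the other 4 below it. The change did not pass there (-0.36, SE 0.21, adjusted p = 0.18), and it did without exposed null library 1 (-0.61, adjusted p = 0.011). In TPM the wild type mean exceeded the null mean 85.1-fold when naive and 33.2-fold when exposed. By counts the gap was smaller, with log2 fold changes of null against wild type of -5.32 (SE 0.21) and -3.96 (SE 0.20). The size of the fold for this gene thus depends on the measure.

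Kazn went from 13.1, 14.1, 12.5 and 12.3 TPM in naive wild type libraries to 4.09, 7.40, 8.71, 5.33 and 4.58 TPM in exposed ones. No exposed library reached the naive range. Kazn fell by 0.75 on the log2 scale (SE 0.26, edgeR adjusted p = 0.025). The call was lost without naive wild type library 2, exposed wild type library 1 or exposed wild type library 4 (adjusted p of 0.063, 0.065 and 0.053). Null libraries held 0.40, 0.26, 0.43, 0.12 and 0.48 TPM when naive and 0.22, 0.28, 0.10, 0.27 and 0.24 TPM when exposed. These ranges overlapped, and the change of -0.19 (SE 0.30) did not pass (adjusted p = 0.64). The wild type mean was 38.5-fold above the null mean in naive mice.

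Coro2b was at 19.2, 21.1, 21.4 and 20.0 TPM in naive wild type libraries, the tightest group of any of the 9 genes, with a coefficient of variation of 4.84%. The median over 14285 tested genes of at least 1 TPM was 12.1% in that group. Exposed wild type libraries held 12.2, 10.7, 15.7, 10.05 and 11.02 TPM, all below the naive ones. The change in counts was -0.33 (SE 0.16) and did not pass (edgeR adjusted p = 0.12), while on log2(TPM + 1), tested with limma, it was -0.74 and passed (adjusted p = 6.5e-05). That scale moved the median of all genes tested to -0.22 in wild type and -0.19 in null mice, from 0.02 in both, so a change in TPM on exposure is read relative to that shift. Null libraries ranged from 0.28 to 0.57 TPM when naive and from 0.19 to 0.45 TPM when exposed, so that the wild type mean was 50.5-fold and 38.9-fold higher.

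C77080 and Adamts2 kept overlapping ranges before and after exposure. C77080 stood at 36.2, 31.7, 25.7 and 30.0 TPM in naive and 23.2, 27.8, 34.1, 30.0 and 17.9 TPM in exposed wild type libraries. Null libraries held 1.00 to 1.52 TPM when naive and 0.67 to 1.28 TPM when exposed, the highest residual level of any of the 6 genes in the null line. Adamts2 stood at 5.99, 6.85, 5.21 and 5.49 TPM in naive and 4.78, 6.23, 7.80, 4.31 and 4.49 TPM in exposed wild type libraries, and at 0.18 to 0.44 TPM over all null libraries. In wild type mice the log2 fold change on exposure was 0.15 (SE 0.15, approximate 95% interval -0.15 to 0.45) for C77080. It was 0.20 (SE 0.21, interval -0.20 to 0.61) for Adamts2, and neither passed (edgeR adjusted p = 0.49 and 0.47). The wild type mean exceeded the null mean 24.1-fold when naive and 26.0-fold when exposed for C77080, and 22.6-fold and 21.8-fold for Adamts2.

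**Figure D3:**
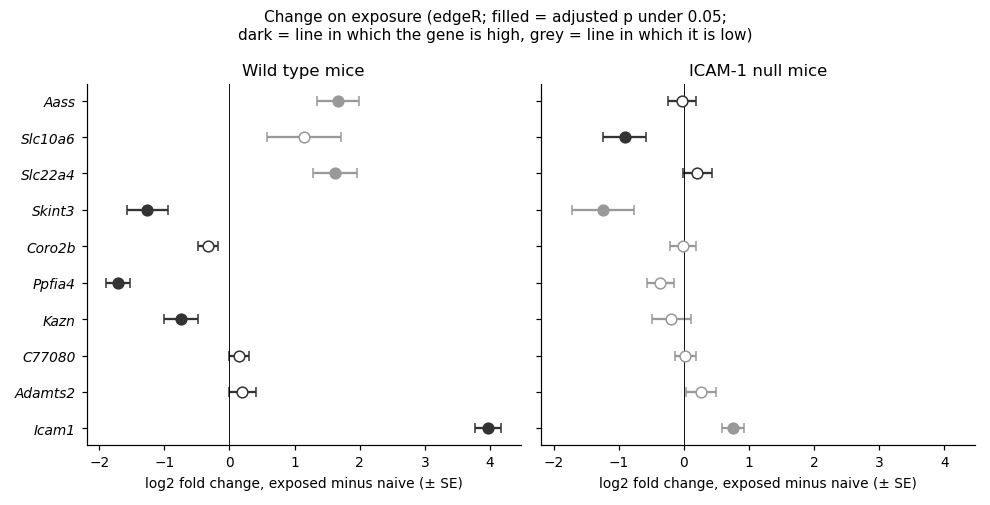
Log2 fold change on exposure with its standard error (horizontal axis) for the 9 genes and Icam1, in wild type (left) and null mice (right). Filled points have an edgeR adjusted p under 0.05, dark points mark the line in which the gene was high, and Ppfia4 at -1.71 lies farthest below 0 in wild type mice.

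Within the line where each gene was high, 4 of the 9 fell with exposure (Ppfia4, Skint3, Kazn and Slc10a6), none rose and 5 did not pass. For background, 40.2% of all genes tested passed in wild type and 44.8% in null mice: 20.2% and 23.4% fell, and 20.1% and 21.4% rose. On log2(TPM + 1), 41% fell and 11% rose in wild type mice. Of the 6 genes high in wild type mice, 3 fell and 4 had separate naive and exposed ranges of TPM, which 40.2% of all genes had in that line. The median log2 fold change of these 6 was -0.54, against 0.02 over all genes tested. Of the 3 genes high in null mice, 1 fell and had separate ranges of TPM, which 40.7% of all genes had in that line. Within the line where each gene was low, 2 rose (Aass and Slc22a4), 1 fell (Skint3, with every exposed library at or under 12 counts) and 6 did not pass. Of the 4 naive wild type libraries, 1 lay at or under 12 counts for Aass and 2 for Slc22a4. The naive and exposed ranges of Slc22a4 overlapped. Both tests on exposure use the same libraries in which the genes were picked. Differences in exposure response between the lines were not tested for these genes.

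Some markers of other cells moved along with exposure. The summed TPM of 11 airway and alveolar epithelial markers was 1023 to 1297 in naive and 1586 to 3363 in exposed wild type libraries, and 959.8 to 1108 and 903.8 to 1309 in null libraries. All 11 were detected, led by Krt19 and the club cell gene Scgb1a1. The sum of 8 squamous epithelial and keratinocyte markers was 2.34 to 5.20 TPM in naive and 10.1 to 22.6 TPM in exposed wild type libraries, and 1.42 to 3.66 and 4.46 to 23.5 TPM in null libraries. In that list Krtdap was at 0 in every naive library and Krt13 in every naive wild type library. The epithelial sum rose in wild type mice mostly through Scgb1a1, from a mean of 247.0 to 1266 TPM, while Krt19 went from 611.1 to 450.1 TPM. By edgeR 8 of these 11 markers rose there, and Krt19, Epcam and Cdh1 did not pass. In null mice 7 of the 11 rose by edgeR, 1 fell (Cdh1, -0.34, SE 0.11) and 3 did not pass. The log2 fold change of Scgb1a1 was 2.77 (SE 0.30) in wild type and 1.45 (SE 0.26) in null mice. Red cell markers summed to 75.6 to 244.1 TPM in naive and 214.2 to 1441 TPM in exposed wild type libraries. In null libraries the sums were 56.2 to 202.1 TPM when naive and 72.2 to 197.5 TPM when exposed. Naive and exposed ranges overlapped in both lines, in wild type mice only through naive library 4 (244.1 TPM) and exposed library 3 (214.2 TPM). By edgeR all 3 red cell markers rose in wild type mice and none passed in null mice. The part of these cells in the results was not tested, and in bulk libraries fewer cells of a type and less RNA per cell cannot be told apart.

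The 9 genes lie on 6 chromosomes of the build of the tables, GRCm39, and none lies beside another. Skint3 (chr4:112089442-112157665), C77080 (chr4:129113371-129155197) and Kazn (chr4:141829701-142205056) share chromosome 4 but are at least 12.7 Mb apart. Slc22a4 (chr11:53873949-53918916) and Adamts2 (chr11:50492911-50698400) are 3.2 Mb apart on chromosome 11 and were high in opposite lines. Coro2b (chr9:62326774-62444326) lies 41.4 Mb from Icam1. Aass is at chr6:23072172-23132985, Slc10a6 at chr5:103753577-103777269 and Ppfia4 at chr1:134224521-134260666. C77080 shares 30 bases with Yars, a tRNA synthetase gene on the opposite strand, whose level was 35.7 TPM in naive wild type and 43.5 TPM in naive null mice. The strand setting of the counting is not given, so reads in those bases could belong to either gene. Yars passed by edgeR in naive mice, in the direction opposite to C77080. It did not pass with limma on log2(TPM + 1) or log2(TPM + 0.1) (0.27 on both, adjusted p = 0.091 and 0.1). The other 7 overlapping features, of Slc10a6, Coro2b, Kazn and Adamts2, stayed at or under 0.55 TPM in every library.

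Within 1 Mb of the 9 genes, 227 other genes were tested, and 29 differed between the lines in naive mice (12.8%) and 37 in exposed mice (16.3%). Over all genes tested the shares were 6.86% and 8.48% (edgeR adjusted p under 0.05). Within 5 Mb, 951 genes gave 11.8% and 13.9%. The direct neighbours of a gene mostly did not follow it. Slc22a21, a transporter gene 2.8 kb from Slc22a4, stood at 2.30 ± 0.47 TPM in naive wild type (n = 4) and 2.04 ± 0.30 TPM in naive null mice (n = 5), and did not pass (0.14 on the log2 scale, SE 0.26, adjusted p = 0.88). Anp32a, 40.7 kb from Coro2b, fell by 0.40 on the log2 scale in naive null mice (SE 0.08, adjusted p = 0.0039), and Aff1, 63.0 kb from Slc10a6, was higher in exposed null mice (0.51, SE 0.10, adjusted p = 0.0025). The nearest tested genes of Aass (Ptprz1 and Cadps2), Skint3 (Slc5a9 and the predicted gene Gm12816) and Adamts2 (Zfp354c and Rufy1) did not pass in either condition, nor did Ptpn13 beside Slc10a6, Itga11 beside Coro2b, Tmem183a and Adora1 beside Ppfia4, Prdm2 beside Kazn or Sync beside C77080. Of these 12, 8 stayed under 1 TPM in every group's mean.

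In naive mice the surroundings of Kazn and Ppfia4 held the most genes that differed in the direction of the gene (6 and 5), and in exposed mice those of Slc22a4 and Ppfia4 did (8 and 7). The surroundings held 6 to 40 tested genes each. By share of genes that passed, Slc10a6 came first in exposed mice, with 4 of 13 (30.8%), 3 of them higher in null mice and 1 lower. Slc22a4 and Ppfia4 had 27.3% and 25.6%. In naive mice none passed beside Slc10a6. Beside Kazn, 8 of 33 genes passed in naive mice, 6 of them lower in null mice. Tmem51, a transmembrane protein gene 18.1 kb away, went from 51.2 TPM in naive wild type to 7.83 TPM in naive null mice (log2 fold change -2.65, SE 0.11, edgeR adjusted p = 4.1e-13) and differed by -2.49 in exposed mice. Tmem51os1, 14.3 kb away, went from 1.03 to 0.06 TPM (-3.63, SE 0.74). Fblim1, which encodes a filamin-binding protein of cell-matrix contacts and lies 496.3 kb away, went from 34.2 to 4.32 TPM (-2.88, SE 0.22). Beside Ppfia4, 6 of 39 genes passed in naive and 10 of 39 in exposed mice, with 5 and 7 lower in null mice. Plekha6, 993.3 kb away, differed by -3.01 (SE 0.23) in naive and -1.90 (SE 0.22) in exposed mice. Syt2, a synaptotagmin gene, differed by -1.87 (SE 0.47; edgeR adjusted p = 0.016, 0.054 without naive wild type library 1 and 0.054 with a replicate block) and -2.72 (SE 0.46), and Ppp1r12b, a regulatory subunit of myosin phosphatase, by -0.78 and -1.64 (SE 0.08 for both).

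Beside Slc22a4, 4 of 33 genes passed in naive and 9 of 33 in exposed mice, with 4 and 8 higher in null mice, the direction of Slc22a4. Lyrm7, a mitochondrial assembly factor gene 798.8 kb away, was higher in null mice by 3.27 (SE 0.31) and 3.17 (SE 0.29). Csf2, the gene of the cytokine GM-CSF, was higher in exposed null mice by 1.92 (SE 0.54, edgeR adjusted p = 0.027). That call was lost by DESeq2 (adjusted p = 0.074) and on leaving out any 1 of 6 exposed libraries (adjusted p from 0.053 to 0.072). Beside Coro2b, Glce, an enzyme of heparan sulfate synthesis, was higher in null mice, by 1.69 (SE 0.12) when naive and 1.14 (SE 0.11) when exposed. Beside C77080, Marcksl1 was higher in exposed null mice at 400.2 against 145.5 TPM (1.49, SE 0.16). Beside Adamts2, N4bp3 was lower by 0.90 (SE 0.21) when naive and by 1.49 (SE 0.20) when exposed, as log2 values, and the former call was lost without naive wild type library 2 (adjusted p = 0.056). Pdlim4, Paqr5 and Spocd1 also passed in 1 condition each, all under 0.4 TPM in every group's mean, and each call was lost on leaving out any of several single libraries, as were those of Pdlim4 and Spocd1 with a replicate block. None of the 6 genes tested beside Skint3 passed by edgeR, while 2 had an unadjusted p under 0.05 and 2 passed by DESeq2 in naive mice, and 0 by either in exposed mice.

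**Figure D4:**
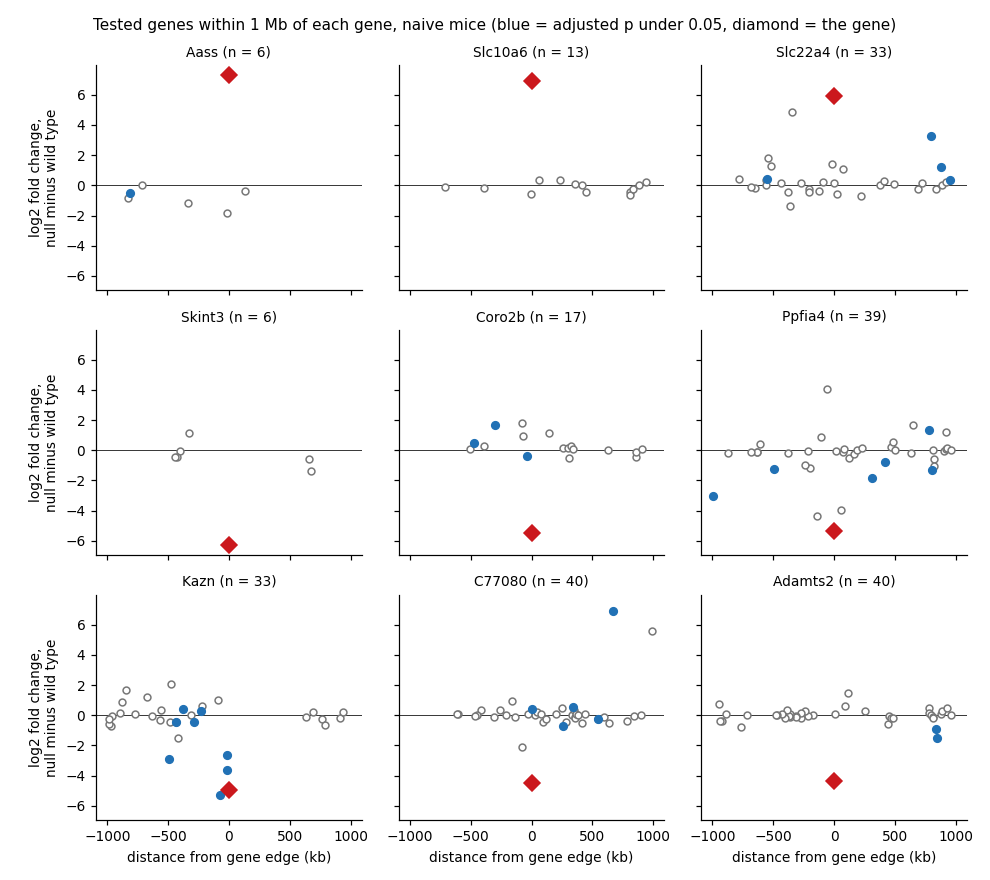
Log2 fold change of null against wild type naive mice (vertical axis) for the tested genes within 1 Mb of each of the 9 genes, by distance from the gene's edge in kb (horizontal axis), with n the number of genes. Blue points have an edgeR adjusted p under 0.05 and the diamond is the gene itself. The blue points cluster below 0 beside Kazn, and 8 of its 33 neighbours passed. The highest blue point beside C77080 is Spocd1, listed at 0 in wild type mice, so its fitted value has no fixed size.

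Of 106 tested genes from the families of the 9, 9 differed between the lines in naive mice (8.49%) and 10 in exposed mice (9.43%), against 6.86% and 8.48% over all genes tested. The medians of the 8 lists with tested genes ran from 0.01 to 0.22 in naive and from -0.51 to 0.11 in exposed mice, as log2 fold changes of null against wild type. Of 11 tested genes of lysine degradation, none passed in naive mice by edgeR (1 at an unadjusted p under 0.05, and 0 by DESeq2) and 1 in exposed mice (Gcdh, 0.30, SE 0.09). Their median was 0.07 in naive mice, against 0.01 over all genes. Dlst, a subunit of the 2-oxoglutarate dehydrogenase complex and the most abundant of them, stood at 179.2 and 181.5 TPM in naive wild type and null mice. Of 14 tested genes of the SLC22 family and the carnitine shuttle, none passed in either condition by edgeR. At an unadjusted p under 0.05 there were 4 in naive and 2 in exposed mice, and DESeq2 called 2 and 0. Slc22a5, the carnitine transporter gene 91.5 kb from Slc22a4, stood at 12.03 and 13.8 TPM in naive wild type and null mice. Among 7 tested genes of the SLC10 family and sulfated steroid handling, 1 passed. Sult2b1, a sulfotransferase that makes sulfated sterols, was at 6.68 ± 0.93 TPM in naive wild type and 28.5 ± 8.08 TPM in naive null mice (2.21, SE 0.18, edgeR adjusted p = 2.4e-08), and differed by 2.31 in exposed mice.

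The 10 other Skint genes listed, Skint1, Skint2 and Skint4 to Skint11, were all at 0 TPM in every library, so Skint3 was the only one of the family with a level here. They are close copies of each other, and how the authors' counting shares reads among copies is not given. Of 20 genes of coronins, the Arp2/3 complex and cofilin control, 2 passed in naive mice (Coro1a, -0.32, SE 0.07, and Cfl2, 0.41, SE 0.09). In exposed mice none passed by edgeR or DESeq2, and 7 had an unadjusted p under 0.05. Cfl1, the cofilin gene, led that list at 2471 and 2425 TPM in naive wild type and null mice. Of 13 tested liprins and partners, Erc1, Erc2 and Kif1a were higher in naive null mice (0.45, 0.74 and 0.92) and Erc2, Git2 and Kif1a in exposed null mice (0.73, 0.47 and 0.66), opposite to Ppfia4.

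Of 12 tested genes of plakins, desmosomes and delta-catenins, Pkp2, a desmosomal plaque gene, was higher in naive null mice (1.49, SE 0.45, edgeR adjusted p = 0.048). That call was lost under RLE scaling, without a low-count filter, on log2(TPM + 1) or with a replicate block (adjusted p from 0.051 to 0.074), and on leaving out any 1 of 13 libraries. In exposed null mice the delta-catenin Arvcf was lower (-1.17, SE 0.23) and Ctnnd1 higher (0.22, SE 0.06). Of 12 tested genes of the NHS family and the WAVE complex, Abi2 was lower in null mice (-0.92 and -1.06), Cyfip2 was higher in naive (0.69) and Nckap1 lower in exposed null mice (-0.66). Of 17 tested ADAMTS and procollagen genes, Adamts6 was lower in exposed null mice (-1.08, SE 0.21). The most abundant genes of these 3 lists, Jup, Brk1 and Adamts10, stood at 79.6, 382.6 and 58.9 TPM in naive wild type and 70.6, 366.6 and 56.1 TPM in naive null mice. Genes with a change under 1 in these families were named after their values were seen.

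The genes whose levels most resembled those of the 9 over the 19 libraries also separated the lines. Likeness was Pearson's r of log2(TPM + 0.1) with 2 genes named for each of the 9, and r ran from 0.957 to 0.987. All points share the 2 lines, so r mostly records the step between them. Between the 3 genes high in null mice r was 0.939 to 0.981, and between the 6 high in wild type mice 0.947 to 0.988. Aass was most like Il18, a cytokine gene at 499.2 TPM in naive wild type and 888.1 TPM in naive null mice, and the pseudogene Hdac1-ps. Slc22a4 was most like Hdac1-ps and Spic, a transcription factor gene of iron-handling macrophages, which went from 0.22 to 16.1 TPM. Slc10a6 was most like Bend4 (0.30 to 4.23 TPM) and, after 4 predicted genes that were passed over, the pseudogene Capza1-ps1. Pseudogenes share sequence with their parent genes, so their counts are uncertain.

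Of the 13 distinct genes named in this way, 5 were on chromosome 4, which holds 5.63% of the genes tested. That share is no independent background for them, because they were picked by likeness to genes chosen for the step between the lines. No enrichment is read from it. All 5 went with genes high in wild type mice. Skint3 was most like Tle1, a transcriptional co-repressor gene (20.4 to 4.28 TPM from naive wild type to naive null mice), and Hmgn2, a nucleosome-binding protein gene (533.7 to 208.3 TPM). Hmgn2 was also named for C77080, beside Lipf, a lipase gene that went from 18.9 to 1.24 TPM, and for Adamts2, beside Fblim1. Coro2b and Kazn were most like Sh3bgrl3 (986.0 to 327.9 TPM) and the ribosomal protein gene Rplp0 (1861 to 1095 TPM). Ppfia4 was most like the cytokine receptor gene Crlf2 (202.1 to 94.5 TPM) and Ndufs5, a complex I subunit gene (131.8 to 45.4 TPM). Tle1, Hmgn2, Sh3bgrl3, Ndufs5 and Fblim1 lie on chromosome 4 between positions 72035379 and 141333407.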

How the data were processed

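Bulk RNA sequencing of lavage cells from 19 mice was read from the tables deposited by the authors: estimated counts, as whole numbers not scaled for depth, and TPM scaled by the authors within each library. STAR, StringTie version 2 and GRCm39 are named in the submitters' processing notes, which as used here give no counting options. One fragment was taken as about 4 counts, so the floor of 3 fragments is 12 counts per library. Estimated counts of all 19 libraries were fitted in a single model with edgeR 4.0.16 (quasi-likelihood F test, two-sided, TMM scaling, filterByExpr defaults of 10 per library and 15 in all; R 4.3.3), tested on simulated data first. The p-values were adjusted by Benjamini-Hochberg over 20501 genes, with a threshold of 0.05, and cover the spread between mice. Fold changes are log2 with standard errors, ± is the SD, and approximate intervals are from the SE. Alternatives were DESeq2 1.42.0, RLE scaling, no filter, limma 3.58.1 on log2 TPM with 0.1 or 1 added, a replicate block and leaving out each library.

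The 9 genes, the family and marker lists and the naming rule were chosen with earlier results of these data known. Besides the 9, the rule named Icam1, the nearest tested and overlapping genes, up to 3 genes per neighbourhood or family with an adjusted p under 0.05 and a log2 fold change of at least 1, the most abundant gene of each family, and the 2 most similar genes; predicted genes were counted, not named, unless nearest. Counts, means and gaps were computed in Python 3.11.15.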

Additional observations from a re-analysis of the deposited data

Results flagged for a closer look

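In 3 of 40 groups of values (the 9 genes and Icam1 in 4 groups each), 1 library stood apart from the others by Dixon's test. Chance gives about 1 such group in 20. Slc22a4 in naive null library 2 was at 34.8 TPM, above the other 4 naive null libraries. Skint3 in naive wild type library 3 was at 9.95 TPM, below the other 3. Adamts2 in naive null library 2 was at 0.40 TPM (0.4041), above the other 4. None of these values closed the gap between the lines.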

How the results depend on the processing

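All 9 genes separated the lines over the 19 libraries also as CPM with TMM scaling. The numbers of genes called in the 4 comparisons stayed within 1.5 times under each alternative run. The split of calls moved on log2(TPM + 1): 2251 rose and 8402 fell in exposed wild type mice (4111 and 4134 by edgeR), 2236 and 8414 in exposed null mice (4387 and 4793), and 680 were higher and 785 lower in naive null mice (883 and 523). For exposure, none of the genes that passed by edgeR changed sign. Changes that did not pass and changed sign were small. With limma on log2(TPM + 1) and log2(TPM + 0.1), Slc22a4 in null mice was -0.07 and -0.07, C77080 -0.23 and -0.24 in wild type and -0.18 and -0.32 in null mice, and Adamts2 -0.10 and -0.12 in wild type and -0.01 and -0.04 in null mice. Coro2b in null mice was 0.01 by DESeq2 and under RLE scaling, and C77080 in null mice was -0.00 without a filter. Leaving out 1 library gave ranges in null mice of -0.09 to 0.01 for Aass, -0.19 to 0.12 for Coro2b, -0.06 to 0.14 for C77080 and -0.00 to 0.44 for Adamts2. Aass in null mice passed on log2(TPM + 1) at -0.38 (adjusted p = 0.032), and Skint3 in null mice did not (-0.14). The differences between the lines, given without a test, kept their sign and were smaller on log2(TPM + 1), at 5.87 for Aass and -3.63 for Skint3 in naive mice. Without naive wild type library 4 the difference was 8.46 for Aass, from 7.28. The cause was not tested.

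Same-numbered mice of the 2 lines in the same condition deviated together in part, with r from -0.04 to 0.27 and over 0.1 in 7 of 9 pairs. In the other pairs of groups r ran from -0.17 to 0.14 and was over 0.1 in 1 of 18 pairs. Of 19 libraries, 10 correlated best with their own number. The median r was 0.14 in the same-condition pairs of the 2 lines, against -0.01 between libraries of different groups and numbers. Because the labels name nothing shared and not every pair was over 0.1, the main fit did not pair the mice. What a number shares was not tested. With the replicate block 7808, 9037, 1365 and 1649 genes passed, against 8245, 9180, 1406 and 1738 without it, in the order wild type exposure, null exposure, naive lines and exposed lines. The block changed none of 18 exposure results of the 9 genes. It ended the calls of Pdlim4 (adjusted p = 0.062), Syt2 (0.054), Spocd1 (0.085) and Pkp2 (0.073). Levels near 12 counts limit what can be read in the low line, most of all for Slc10a6 and Skint3.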
